A study of Onthophagus taurus and Onthophagus nigriventris with 71 samples.

Results

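The probes described here are the 60 of 3840 on a beetle microarray whose thorax log ratio was negative in Onthophagus nigriventris and positive in Onthophagus taurus by the widest margin. A log ratio is the log2 of 1 dissected tissue over a comparison tissue on the same 2-colour array, and for the thorax the comparison was dorsal abdominal epidermis. N was the mean of the 3 O. nigriventris group means, T was the same mean for the O. taurus thorax, and the 60 probes with the highest value of the smaller of -N and T were taken. The sign of the ratio is likely focal tissue over comparison tissue, because the design sets each focal tissue relative to abdomen or ganglia, but the sources used here do not state it. Values are therefore called positive or negative, and a positive value likely means more RNA in the focal tissue. N and T correlated at r = 0.73 across the 3840 probes, so the ratios of both species run the same way.

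The O. nigriventris arrays compared dorsal thoracic with abdominal epidermis in females (7 arrays), large, horned males (5) and small males called sneakers (7). The O. taurus arrays held 12 groups of 4, namely females, large males and small males for the thorax, the head and the legs, each against abdominal epidermis, and for the brain against neural ganglia. A further 4 arrays hybridised large male head directly against small male head of O. taurus. All animals were unmanipulated wild types reared in the laboratory and taken as pupae within 24 h of pupation, the labels give a range of sizes for females, and each dye channel held RNA pooled from 4 individuals. The array was designed for O. taurus, and how well O. nigriventris RNA binds each probe was not tested. No probe identifier matched the gene table at hand, so the probes have no gene names here, several may report the same gene, and the tissues could not be checked against marker genes. In such pooled tissue, fewer cells of a type and less RNA per cell cannot be told apart.

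Beetle horns are outgrowths of the epidermis that enlarge before the pupal stage and are remodelled in the pupa. Large O. taurus males carry a pair of long head horns as adults and small males carry rudiments or none. Pupae of O. taurus also bear a thoracic horn in both sexes, which is removed before adulthood, whereas large males of O. nigriventris keep a thoracic horn as adults. The labels describe the dorsal abdominal epidermis as free of outgrowths.

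A negative N with a positive T was not rare on the array. It was found for 704 of the 3840 probes (18.3%), against 566 probes of the reverse pattern, 1385 with both means positive and 1185 with both negative. Among the 60 members, N ran from -0.99 to -0.22 with a median of -0.30, and T ran from 0.22 to 4.48 with a median of 0.36. The members were chosen by these thorax log ratios of both species, which are therefore given without a test. Most members were modest in both species: 37 had T below 0.5 and 30 had N above -0.3, while 9 had T of at least 1 and 10 had N of -0.5 or lower. The smaller of -N and T was set by O. nigriventris in 38 members and by O. taurus in 22. The list ended without a gap, at 0.225 for OtP002-E12, 0.2185 for OtP002-D12 and 0.2182 for OtL018-C05 inside, and 0.2174 for OtP005-D10, 0.2163 for OtL007-A07 and 0.2148 for OtL002-G07 just outside.

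The groups did not always share the sign of their species mean. All 3 group means were negative in O. nigriventris for 41 members, all 3 were positive in the O. taurus thorax for 53, and both held for 37. In O. nigriventris 54 members were negative in females, 53 in large males and 54 in small males. Of the O. taurus thorax means, 57 were positive in females, 60 in large males and 56 in small males. Single arrays were far more scattered in O. nigriventris, where the median SD of a member over the 19 arrays was 0.746, against 0.300 over the 12 O. taurus thorax arrays. A member was negative on 9 to 19 of the O. nigriventris arrays (median 13) and positive on 7 to 12 of the O. taurus arrays (median 11). The arrays of the species did not overlap for 12 members. The choice of members favours such a separation, and without the share of all probes nothing is read from this count.

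OtL016-G11 headed the list. In O. nigriventris its log ratios had a lowest, median and highest value of -1.38, -0.76 and -0.40 in females, were -1.12, -0.53, -1.17, -0.69 and -0.18 on the large male arrays, and had a lowest, median and highest value of -1.95, -0.76 and -0.32 in small males. They were, in the O. taurus thorax, 0.75, 0.93, 1.04 and 0.72 in females, 0.71, 0.63, 0.97 and 0.23 in large males and 0.73, 0.66, 1.09 and 0.79 in small males. The probe was thus negative on every O. nigriventris array and positive on every O. taurus thorax array, and it was the single member with both properties. It was close to 0 in the O. taurus head and legs, with means over the 3 groups of -0.13 ± 0.13 and -0.18 ± 0.13 (SE, limma), and neither passed the test.

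OtL020-B06 was the other member negative on all 19 O. nigriventris arrays. Its lowest, median and highest values were -1.19, -0.55 and -0.09 in females, the large male arrays read -1.78, -0.72, -0.80, -0.97 and -0.73, and small males had -1.90, -0.97 and -0.14. The O. taurus thorax arrays read 0.81, 0.24, 0.38 and 1.20 in females, 0.97, 0.36, 0.17 and 0.39 in large males and 0.90, 0.35, -0.03 and 1.01 in small males. The species overlapped on none of these arrays, although 1 small male array of O. taurus lay just below 0.

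OtL019-B05 combined a negative O. nigriventris thorax with a strongly positive O. taurus thorax. In O. nigriventris the lowest, median and highest values were -1.30, -0.51 and -0.06 in females, large males gave -0.21, -0.59, -1.78, -0.75 and 0.09, and small males had -1.26, -0.55 and -0.10. Its mean in the O. taurus thorax was 1.14 ± 0.31 in females, 2.03 ± 0.29 in large males and 1.47 ± 0.67 in small males (SD, n = 4 each). A single O. nigriventris array, from large males, was above 0.

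The largest O. taurus values belonged to OtP013-D03 and OtL012-B01, which sat near 0 in O. nigriventris. OtP013-D03 ran from -1.53 to 0.94 on the O. nigriventris arrays with a median of -0.28, against 3.55 to 5.12 on the O. taurus thorax arrays with a median of 4.57. OtL012-B01 ran from -1.60 to 1.20 with a median of -0.49, against 3.25 to 6.81 with a median of 4.01. Each was negative on 12 of the 19 O. nigriventris arrays. The smaller of -N and T was -N for both, at 0.24 and 0.28. Their place in the list was therefore set by a ratio scattered around 0 in O. nigriventris, not by the high O. taurus ratio. The opposite case was OtL020-C12, which had the most negative N of the members, -0.99, with a T of 0.33.

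OtP010-A08 and OtP004-F09 were the most alike pair of members. OtP010-A08 had lowest, median and highest values of -1.03, -0.59 and 0.11 in O. nigriventris females, large males gave 0.29, -0.72, -0.90, -0.62 and 0.30, and small males had -1.5, -0.88 and 0.23. OtP004-F09 had group means of -0.44 ± 0.47, -0.30 ± 0.36 and -0.60 ± 0.58 in O. nigriventris females, large males and small males (SD, n = 7, 5 and 7). T was 1.57 for OtP010-A08 and 1.64 for OtP004-F09. Over the 40 O. taurus arrays that the choice of members did not use, their log ratios correlated at r = 0.978, and at r = 0.920 after each group's mean was taken off. The points share arrays and tissues, and whether both probes report one gene was not tested. Among the 1770 pairs of members 4 exceeded r = 0.9, and the median was 0.139. The others were OtP011-A04 with OtL015-E01 (0.955), OtL012-B01 with OtP013-D03 (0.927) and OtL001-H09 with OtL006-E03 (0.924). After each group's mean was taken off, they stood at 0.902, 0.786 and 0.489 in that order.

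Some members rested on 1 array of the species mean. OtL019-B10 read -6.21 on 1 O. nigriventris female array, while the other 6 ran from -0.86 to 0.39, and its median over the 19 arrays was -0.19. The same array read -5.97 for OtP010-E09, which read 3.53 on another female array and had a median of -0.15 over the 19. OtP003-E11 read 5.78 on 1 O. taurus large male thorax array, while the other 11 thorax arrays ran from -0.14 to 0.37. OtL013-G12 read 3.04 on 1 O. taurus female thorax array, and its median over the 12 arrays was 0.12.

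In O. nigriventris the sign of many members differed with the dye that carried the thorax RNA. Thorax RNA was in Cy5 on 11 of these arrays and in Cy3 on 8, and 34 of the 60 members (56.7%) had a negative mean in both orientations. Among all 1889 probes with a negative N that share was 47.9%. Of the other 26 members, 16 were negative with the thorax in Cy5 alone and 10 with the thorax in Cy3 alone. In the O. taurus thorax, with 6 arrays in each orientation, all 60 members were positive in both. The choice of members by T favours this count, as the choice by N favours the 34 above. Arrays of 1 O. nigriventris group correlated at a mean r of 0.488 over all probes within an orientation and 0.159 across orientations, whereas those of the O. taurus thorax correlated at 0.841 and 0.853.

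The dye term, the difference of the log ratio with the focal tissue in Cy5 minus that in Cy3, was tested. The rule did not use it directly. More O. nigriventris arrays held the thorax in Cy5 than in Cy3, however, so a negative dye term lowers N. The dye calls among members are therefore not independent of the choice of members. In O. nigriventris the dye term passed for 12 members, 7 positive and 5 negative (limma, Benjamini-Hochberg adjusted p under 0.05), against 22.5% of all probes, 16.9% positive and 5.6% negative. The members' share was 20%. The O. nigriventris array medians averaged 0.11 with the thorax in Cy5 and -0.12 with the thorax in Cy3, and with each array centred on its median the dye term passed for 16 members, 3 positive and 13 negative. That was 26.7% of the members against 18.1% of all probes, so neither the direction of the calls nor the members' place relative to the background was the same under both scalings. In O. taurus it passed for 3 members, against 3.46% of all probes. Of the 12 members called in O. nigriventris 10 were among those whose sign differed between orientations.

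OtP002-E12 was the extreme case. On the O. nigriventris large male arrays it read 2.64, -1.15, -4.40, 2.61 and -1.47, and its mean over all such arrays was -2.04 with the thorax in Cy5 and 2.26 with the thorax in Cy3. The dye term was -4.30 ± 0.40 (SE, limma adjusted p = 6.31e-08), and with both orientations weighted alike N became 0.11. OtL013-G12 stood at -1.41 in Cy5 and 1.32 in Cy3, with a dye term of -2.72 ± 0.33 (adjusted p = 2.19e-06). OtL008-C03 ran the other way, at 0.44 in Cy5 and -1.20 in Cy3, with a dye term of 1.64 ± 0.23 (adjusted p = 1.97e-05). With both orientations weighted alike, OtL013-G12 moved to -0.08, against an N of -0.30, and OtL008-C03 to -0.38, against an N of -0.25.

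With both orientations weighted alike, the members furthest below 0 relative to their error in O. nigriventris were OtL016-G11 at -0.85 ± 0.11 and OtL020-B06 at -0.90 ± 0.12 (SE). OtL020-C12 followed at -1.03 ± 0.17, OtL002-E05 at -0.79 ± 0.16, OtL019-B05 at -0.61 ± 0.12 and OtL018-B06 at -0.84 ± 0.17. These values describe the members and are no test, since the rule used the same arrays.

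Differences between male morphs and between the sexes within a species were not used by the rule. In the O. nigriventris thorax no member passed the test for large minus small males or for females minus the mean of both male morphs (limma), and neither did any of the 3840 probes (0%). At an unadjusted p under 0.05 there were 3 members and 266 probes for the morph, and 5 members and 145 probes for the sex.

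OtL002-E05 had the widest spread among O. nigriventris groups. The large male arrays read -0.74, 0.04, 0.50, 0.58 and 1.13, against a lowest, median and highest value of -2.72, -1.13 and -0.60 on the small male arrays. Large males thus lay around and above 0 and small males below it, with overlap at 1 large male array. The difference was 1.55 ± 0.39 (SE, unadjusted p = 0.000648, adjusted p = 0.431). Females read -2.20, -1.40 and 0.93 at their lowest, median and highest. The negative N of this probe therefore came from females and small males, while its large male mean was 0.30 ± 0.70 (SD, n = 5). The dye term of OtL002-E05 passed in O. nigriventris, at 0.89 ± 0.31 (SE, limma adjusted p = 0.0413). Its mean over all O. nigriventris arrays was -0.43 with the thorax in Cy5 and -1.36 with the thorax in Cy3.

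OtP019-G12 was next for the morph. Its large male arrays read 0.82, -0.41, -0.30, 1.05 and -0.43, against -2.0, -0.88 and 0.64 at the lowest, median and highest of the small males. The groups overlapped, and the difference was 0.95 ± 0.35 (SE, unadjusted p = 0.0123, adjusted p = 0.623). In both male groups the mean was lower with the thorax in Cy5 than in Cy3. Large male means were -0.38 with the thorax in Cy5 and 0.93 in Cy3, and small male means -1.24 and -0.18. Female means were close to each other, at -0.60 and -0.68. The dye term of OtP019-G12 in O. nigriventris was -0.70 ± 0.28 (SE, limma adjusted p = 0.0699) and did not pass. For the sex, the smallest p values belonged to OtL002-B12, at 0.93 ± 0.36 for females minus males, and to OtP004-D01, at -0.86 ± 0.34 (SE, both adjusted p = 1.0). OtP004-D01 had a lowest, median and highest value of -2.43, -0.78 and 0.94 in females, against 0.76, -0.73, -1.42, 1.03 and -1.26 in large males and -1.37, 0.37 and 1.5 in small males. Its small male mean was 0.07 ± 0.99 (SD, n = 7), so its negative N came from the other groups, and its dye term was -1.43 ± 0.33 (SE, adjusted p = 0.00407).

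The sex contrast of the O. taurus thorax passed for 2 members, both lower in females than in males, against 1.17% of all probes in that direction and 2.11% in either. OtL002-E05 read 2.78, 2.21, 2.70 and 2.67 in females, against 3.94, 3.63, 4.18 and 3.46 in large males and 2.79, 3.63, 3.92 and 3.51 in small males. Every female array lay below every male array, and the difference was -1.04 ± 0.19 (SE, limma adjusted p = 0.0110). OtP008-B03 read -0.10, -0.39, -0.36 and 0.03 in females, against 0.60, 0.70, 0.49 and 0.49 in large males and 0.56, -0.0013, 0.51 and 0.33 in small males. Its difference was -0.66 ± 0.15 (SE, adjusted p = 0.0180), which went to an adjusted p of 0.0729 without female replicate 2. The T of OtP008-B03 was therefore positive through males alone.

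The morph contrast in the O. taurus thorax passed for 0 members, against 0.026% of all probes (3 members and 224 probes at an unadjusted p under 0.05, limma). OtP019-G12 read -0.01, 0.17, 0.37 and 0.30 in large males, against 0.45, 0.49, 0.76 and 0.39 in small males, a difference of -0.31 ± 0.13 (SE, adjusted p = 0.681). OtP003-E11 had a difference of 1.33 ± 0.57 (adjusted p = 0.700) that came from its array at 5.78, and it was -0.12 without that array.

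Whether a contrast differed between the species was tested in a joint fit of the 31 thorax arrays. For the morph contrast, O. nigriventris minus O. taurus, 0 members and 0% of all probes passed (2 members and 126 probes at an unadjusted p under 0.05, limma). OtP019-G12 had a species difference of 1.26 ± 0.45 and OtL002-E05 of 1.21 ± 0.53 (SE, both adjusted p = 0.994). For OtL002-E05 the morph contrast was 1.55 in O. nigriventris and 0.34 in O. taurus. For the sex contrast 0 members and 0% of all probes passed (2 members and 171 probes at an unadjusted p under 0.05), with OtP004-D01 at -1.26 ± 0.49 and OtL013-G12 at -1.32 ± 0.57 (SE, both adjusted p = 0.998). No member was thus shown to differ between the species in its sex or morph contrast at this number of arrays.

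In the O. taurus head, the tissue that bears the adult horn, some members differed between the male morphs, as did other probes. The morph contrast passed for 7 members, 5 higher in large males (3.46% of all probes in that direction) and 2 lower (3.93%), against 7.4% of all probes in either direction. The members' share was 11.7%. It was 10% against 8.57% of all probes with array weights, and 1.67% against 1.98% with each array scaled to one spread. Nothing is therefore read from this count about the members as a list.

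OtL002-E05 read 5.03, 4.52, 5.22 and 4.92 in large male heads, against 0.28, 0.66, 0.31 and 1.41 in small male heads. Female heads read 0.18, 0.67, -0.14 and 0.37. Large males stood more than 3 log2 units above every other head array, with a morph contrast of 4.26 ± 0.22 (SE, limma adjusted p = 4.68e-18) and a sex contrast, females minus males, of -2.52 ± 0.19 (adjusted p = 1.98e-12). This was the single member called for the sex in the head, where 1.56% of all probes passed in the negative direction and 2.55% in either. On the direct arrays of large against small male heads the probe read 4.98, 4.40, 4.02 and 4.31, and it was the single member called there, against 0.234% of all probes (4.43 ± 0.20, adjusted p = 0.0176). That call was lost without direct replicate 3 (adjusted p = 0.0812), where 15 members and 694 probes had an unadjusted p under 0.05 with all 4 arrays. The O. nigriventris thorax ratio of this probe, given above, was likewise higher in large than in small males, but that difference did not pass the test.

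OtL019-B05 read 2.99, 3.60, 2.76 and 3.26 in large male heads, against 2.32, 1.51, 1.79 and 2.23 in small male heads. The groups did not overlap, and the contrast was 1.19 ± 0.28 (SE, limma adjusted p = 0.00402). The direct arrays read 0.85, 0.85, 1.28 and 1.71, positive on all 4, at an adjusted p of 0.104.

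The remaining 3 positive members had smaller contrasts. OtL018-B06 stood at 0.52 ± 0.17 (adjusted p = 0.0470), OtL001-H09 at 0.48 ± 0.12 (adjusted p = 0.00942) and OtL016-B05 at 0.42 ± 0.13 (adjusted p = 0.0436; SE, limma). OtL001-H09 read 0.60, 0.94, 0.81 and 1.43 in large male heads, against 0.44, 0.37, 0.60 and 0.43 in small male heads, and the groups met at 0.60.

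The negative members were OtL012-E10 and OtP019-G12. OtL012-E10 read -0.86, -0.46, -0.38 and -0.59 in large male heads, against 0.14, 0.01, 0.81 and 0.15 in small male heads (-0.85 ± 0.24, limma adjusted p = 0.0238). OtP019-G12 read -0.10, -0.19, 0.21 and -0.43 in large male heads, against 0.37, 0.66, 0.25 and 0.53 in small male heads (-0.58 ± 0.13, adjusted p = 0.00289). Large and small males did not overlap for either probe. On the direct arrays 6 of the 7 called members had the same sign, the exception being OtP019-G12 at 0.10 ± 0.13. With each array scaled to one spread, OtL002-E05 was the single call left among the 7, and a fit of the compared groups alone called 3 members, 2 of them among the 7.

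Legs showed no call for sex or morph among the members. The morph contrast passed for 0% of all probes (7 members and 235 probes at an unadjusted p under 0.05, limma) and the sex contrast for 0.208% (7 members and 460 probes). OtP004-G08 read -0.92, -1.14, -2.57 and -0.90 in large male legs, against -0.40, -0.64, -0.01 and -0.81 in small male legs, without overlap (-0.92 ± 0.25, SE, adjusted p = 0.557). OtP006-D12 had a morph contrast of -0.34 ± 0.13 (adjusted p = 0.766). OtP011-A04 read 0.35, 0.49, 1.26 and 0.69 in female legs, against -0.34, 0.12, -0.38 and -0.17 in large male legs and 0.49, -0.56, -0.20 and -0.57 in small male legs (0.90 ± 0.25, adjusted p = 0.123). That contrast passed with array weights (adjusted p = 0.00728) and without small male replicate 1 (adjusted p = 0.0429). OtP012-A02, which tracked OtP011-A04 at r = 0.889 over the 40 arrays, had a sex contrast of 0.52 ± 0.17 in legs (adjusted p = 0.235).

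The brain morph contrast passed for 0 members, against 0.026% of all probes (3 members and 101 probes at an unadjusted p under 0.05, limma), and the sex contrast for 0 members and 0% of probes (3 and 113). OtL017-G01 read 1.33, 0.61, 0.87 and 0.30 in large male brains, against 1.11, 7.34, 1.37 and 0.82 in small male brains, and its contrast of -1.88 ± 0.64 (adjusted p = 0.657) rested on the array at 7.34. OtL016-G11 had a brain morph contrast of -0.81 ± 0.33 (adjusted p = 1.0). For the sex, OtP010-E09 stood at -0.38 ± 0.16 and OtP003-C05 at 0.50 ± 0.22 (SE, both adjusted p = 1.0). Small male brain replicate 3 and female brain replicate 1 correlated least with their own groups, at a mean r of 0.319 and 0.554, and without both of them 1 member passed each of the brain contrasts.

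Brain against ganglia shares no tissue with the thorax ratio. The contrast passed for 17 members in the positive direction (20.1% of all probes) and 12 in the negative (31.7%), together 29 of 60 against 51.8% of all probes, and the median of the members was -0.02 against -0.06 for all probes. The negative count was the less stable, at 20 (19 positive) with each array scaled to one spread and 18 (18 positive) with array weights. In total share and median the members were therefore not far from the array in the brain. Their values spread more widely, with an SD of 0.93 over the members against 0.52 over all probes. Both directions held members with clear values. On the positive side OtP004-F09 stood at 3.33 ± 0.17, OtP010-A08 at 3.09 ± 0.16, OtL016-G11 at 2.61 ± 0.13 and OtL015-B08 at 2.57 ± 0.17 (SE, limma adjusted p from 2.23e-19 to 4.42e-16).

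OtL016-G11 read 1.36, 3.58, 3.70 and 3.52 in female brains, 2.40, 2.31, 1.73 and 1.53 in large male brains and 1.86, 3.40, 2.32 and 3.64 in small male brains. All 12 values were positive. They are ratios against ganglia and the thorax values are ratios against abdomen, so their sizes cannot be compared. Of the negative members, OtL003-G11 stood at -1.07 ± 0.09, OtL018-B06 at -0.65 ± 0.07, OtP008-B03 at -0.59 ± 0.07 and OtL006-E03 at -0.39 ± 0.06 (SE, limma adjusted p from 2.07e-13 to 1.42e-06). OtL003-G11 ran from -1.61 to -0.72 over the 12 brain arrays, and OtL018-B06 from -0.84 to -0.49.

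Head minus legs in O. taurus cancels the abdomen and leaves out the thorax arrays. It passed for 23 members in the positive direction (23.6% of all probes) and for 6 in the negative (24%), together 29 of 60 against 47.6%, and the median was 0.18 over the members and 0.0038 over all probes.

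The members furthest on the head side were OtL017-G01 at 2.41 ± 0.37, OtL009-B07 at 1.97 ± 0.40, OtL015-B08 at 1.75 ± 0.24 and OtL019-B05 at 1.20 ± 0.16 (SE, limma adjusted p from 1.05e-07 to 0.000123). OtL017-G01 ran from -0.12 to 1.19 on the 12 head arrays, against -2.50 to -1.32 on the 12 leg arrays. Head and legs did not overlap for this probe, and their mean signs were opposite. The members furthest on the leg side were OtL014-E10 at -1.95 ± 0.24, OtP003-C07 at -1.33 ± 0.18, OtL016-A07 at -0.94 ± 0.13 and OtP003-E09 at -0.55 ± 0.12 (SE, limma adjusted p from 1.80e-08 to 0.000467). OtL014-E10 ran from -1.83 to 0.98 in heads, against 0.34 to 2.95 in legs. OtP003-C07 was negative on all 12 head arrays, from -1.79 to -0.65, against -0.54 to 0.70 in legs.

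Set against abdomen, the head was positive for 46 members and negative for 4 (41.8% and 33.6% of all probes, 75.5% in either direction), and the legs were positive for 41 and negative for 8 (37.4% and 30.1%, 67.6% in either direction). The medians were 0.51 for the members and 0.06 for all probes in the head, and 0.39 and 0.06 in the legs. Both comparisons share the abdominal epidermis with the thorax ratio that chose the members, so the excess of positive values is given side by side with the thorax and nothing is read from it. By member, 38 were positive in head and legs, 5 in the head with no call in legs, and 3 in legs with no call in the head. A further 3 were negative in both, 1 was negative in the head alone, 2 in the legs alone, and 5 had no call in either. Of the 38 positive in both epidermal outgrowths, 14 were also positive in brain against ganglia, 9 were negative there and 15 had no call.

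OtP013-D03 and OtL012-B01 were high in every epidermal tissue of O. taurus. OtP013-D03 ran from 4.10 to 5.47 over the 12 head arrays and from 4.50 to 5.44 over the 12 leg arrays, with means of 4.83 ± 0.30 and 4.98 ± 0.30 (SE, limma adjusted p = 6.10e-18 and 2.70e-18). OtL012-B01 ran from 3.87 to 4.79 in heads and from 1.48 to 5.14 in legs, with means of 4.41 ± 0.31 and 4.53 ± 0.31 (adjusted p = 4.17e-16 and 2.07e-16). Their T values in the O. taurus thorax were 4.48 and 4.14. Other tissues of O. nigriventris were not analysed here.

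OtL015-B08 and OtL009-B07 came next in the head, at 3.31 ± 0.17 and 3.11 ± 0.29, and OtL014-E10 and OtP004-F09 in the legs, at 1.91 ± 0.17 and 1.88 ± 0.17 (SE, limma). OtL015-B08 ran from 2.36 to 5.11 in heads, against 0.13 to 2.53 in legs. OtL009-B07 ran from 0.69 to 4.37 in heads, against 0.13 to 2.27 in legs.

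A few members had a positive T and were negative in another O. taurus tissue. The positive thorax was not equally firm for those named next. OtL003-G11 and OtP004-G08 were positive on all 12 O. taurus thorax arrays and OtL012-E10 on 11. OtP013-F12 and OtL017-G01 were positive on 9, and OtP003-C07 and OtP008-B03 on 8. In the head the negative calls were OtP003-C07 at -1.26 ± 0.13, OtP013-F12 at -0.88 ± 0.10, OtP008-B03 at -0.49 ± 0.07 and OtL003-G11 at -0.35 ± 0.09 (SE, limma adjusted p from 9.87e-12 to 0.000384). In the legs the most negative were OtL017-G01 at -1.84 ± 0.26, OtL003-G11 at -0.87 ± 0.09, OtP004-G08 at -0.83 ± 0.10 and OtL012-E10 at -0.79 ± 0.10 (SE, limma adjusted p from 1.39e-11 to 6.20e-08). OtL003-G11 was negative in the head, the legs and the brain, and it was positive on every O. taurus thorax array, at 1.09, 1.06, 0.66 and 0.63 in females, 1.04, 0.88, 0.87 and 0.67 in large males and 1.31, 0.23, 1.26 and 1.0 in small males. In O. nigriventris its lowest, median and highest values were -1.73, -0.31 and 0.06 in females, large males gave -0.71, -0.26, -0.01, -0.75 and -0.72, and small males had -2.78, -0.13 and 0.66. Opposite calls in head and legs were made for 3 members, OtL017-G01, OtP019-G12 and OtL018-C05, all positive in the head and negative in the legs.

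The names of the probes hold a plate and a well, and the members came from 29 of the 40 plates of 96 wells, 35 with the prefix OtL and 25 with OtP, of 1920 probes each. Plate OtL018 held 6 members. Across the 71 arrays the medians ran from -0.17 to 0.17, no value was missing, and the highest correlation between 2 arrays was 0.949. The number of arrays limits the precision, and the labels do not say whether the pools of a group held different animals, so a p value here speaks of the spread between pools, which may be technical.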

How the data were processed

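The deposited values were normalised log ratios, 1 per probe and array, for 3840 probes on 71 two-colour arrays. The authors deposited them with no base stated. They were read as log2, the base limma uses, since that tool is named in the submitters' processing notes. The sources used here do not give the background correction, the within-array normalisation or the numerator. Per the labels' protocols, RNA was column-purified, amplified by in vitro transcription and labelled with Cy5 and Cy3, with dyes swapped within groups. The lowest correlation between thorax arrays of one species and orientation was 0.26, so no array was turned.

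The members and the lists of named probes were chosen with earlier results of these data known. Group, sex, morph and tissue contrasts were fitted in R 4.3.3 by limma 3.58.1 with dye orientation as a covariate and moderated variances, on 48 O. taurus arrays, 19 O. nigriventris arrays, 31 thorax arrays of both species (a dye term for each species) and 4 direct arrays. P values were adjusted over all 3840 probes by Benjamini-Hochberg, with a threshold of 0.05, and only members are printed. Named probes were the 10 members with the highest rule value, those at its edge, the 4 largest members called in each direction of a contrast (the 2 smallest p values where none passed), the members with the most and the least spread between groups, and the most alike pairs. The fits were checked on simulated data. Alternatives were centring, scaling, array weights, no dye term, fits of the compared groups alone, replicate blocks, other averages in the rule and leaving out single arrays.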

Additional observations from a re-analysis of the deposited data

Results flagged for a closer look

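Among 225 groups of 4 to 7 arrays behind the named values, 17 held 1 array that stood apart from the rest of its group by a gap test (Dixon's), which flags about 1 group in 20 by chance. In O. nigriventris, OtL016-G11 read -1.95 in small male replicate 3 (the others -0.947 to -0.317), OtL002-E05 read 0.928 in female replicate 5 (-2.2 to -1.18), OtL020-B06 read -1.78 in large male replicate 1 (-0.968 to -0.723) and OtL019-B10 read -6.21 in female replicate 2 (-0.86 to 0.394). In the O. taurus thorax, large male replicate 1 read 5.78 for OtP003-E11 (the others -0.105 to 0.151) and 6.81 for OtL012-B01 (3.74 to 4.05), and female replicate 2 read 3.04 for OtL013-G12 (0.0546 to 0.544). Among head arrays of O. taurus, OtL009-B07 read 0.688 in small male replicate 4 (3.53 to 3.67), OtL015-B08 read 2.44 in small male replicate 3 (3.44 to 3.64), OtP003-E09 read 1.12 in large male replicate 4 (0.366 to 0.485) and OtP008-B03 read -0.79 in small male replicate 2 (-0.293 to -0.23).

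Among leg arrays of O. taurus, large male replicate 3 read -2.57 for OtP004-G08 (the others -1.14 to -0.898) and 1.48 for OtL012-B01 (4.76 to 5.07), and OtL003-G11 read -1.14 in small male replicate 4 (-0.728 to -0.654). Among brain arrays of O. taurus, OtL017-G01 read 7.34 in small male replicate 2 (0.82 to 1.37), OtP004-F09 read 2.02 in small male replicate 3 (3.87 to 4.18) and OtL016-G11 read 1.36 in female replicate 1 (3.52 to 3.7). The last 2 arrays were those that correlated least with their groups over all probes.

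OtL016-G11 was negative on all 19 O. nigriventris arrays, the highest at -0.181, and positive on all 12 O. taurus thorax arrays. That difference was not tested, because the rule used it. Head minus legs passed the limma test with opposite calls against abdomen for OtL017-G01 at 2.41 (0.569 in the head and -1.84 in the legs), OtL018-C05 at 0.693 (0.193 and -0.5) and OtP019-G12 at 0.511 (0.161 and -0.35).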

How the results depend on the processing

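Most counts of called members stayed within 1.5 times the reported one. The exceptions follow, and the cause was not tested for any of them. For the head morph (7 members), scaling each array to one spread left 1 and a fit of the compared groups alone called 3, of which 2 were among the 7. Array weights gave 5 members for the thorax sex (2 reported, both lower in females), 3 of them higher in females, 3 for the legs sex (0) and 5 for the O. taurus dye term (3). Without a dye term the direct arrays called 2 members (1). Leaving out both brain arrays that correlated least with their groups, a setting chosen after seeing the data, gave 1 member for the brain morph and 1 for the brain sex (0 each). With the replicate number as a block the O. nigriventris dye term called 7 members (12 reported), and no other count moved by over 1.5 times. A block of pools across O. taurus tissues moved no count by over 1.5 times. Deviations of same-numbered arrays from their group means correlated over 0.1 in every case for 6 of 24 pairs of groups (0.116 to 0.591), among them female with small male heads and thoraces. They did not for the other 18, large with small male thoraces included (-0.239 to 0.0961). No sex or morph contrast had all its pairs of groups over 0.1, so the numbers were not treated as pairing the arrays. Centring each array turned the split of the O. nigriventris dye calls from 7 positive and 5 negative to 3 and 13, and left 33 members negative in both orientations (34 reported).

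Leaving out single arrays, counts ran from 4 to 8 for the head morph (4 without large male head replicate 4 or small male head replicate 3), 1 to 3 for the head sex (3 without female head replicate 2), 1 to 3 for the thorax sex (1 without female thorax replicate 2), 0 to 1 for the legs sex (1 without small male legs replicate 1), 0 to 1 for the brain sex (1 without female brain replicate 1 or small male brain replicate 2), 0 to 5 on the direct arrays (5 without replicate 2, 0 without replicate 3) and 2 to 5 for the O. taurus dye term. The thorax morph contrast of OtP003-E11 ran from -0.118, reversed, without large male thorax replicate 1 to 1.88 without large male thorax replicate 2. Of the 60 members the rule chose 35 again with medians of arrays and 35 with moderated t values, against 50 after centring, 47 after scaling, 47 with both dye orientations weighted alike and 46 to 57 without single arrays, so membership near the edge depends on these choices.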
